A study of Homo sapiens with 6 samples.

Results

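TXNIP, the alpha-arrestins ARRDC1 to ARRDC4, the transcription factor genes MLXIP and MLX, and the thioredoxin genes TXN and TXNRD1 were read in K562 cells treated with cortistatin A. These 9 genes are represented by 22 probe sets, out of 54613 probe sets other than controls and 19775 genes named by a single symbol in the platform annotation. The genes were chosen by family after the fall of TXNIP in the same 3 CA and 3 DMSO arrays was known. The comparison of CA with DMSO is therefore a description for these genes, and the adjusted p-values printed for them give their place in the fit over all probe sets and are not independent evidence. K562 is an established line of human chronic myelogenous leukaemia cells. It was grown in medium with 10% serum, plated in triplicate wells and kept for 3 h either with the vehicle DMSO or with 25 nM CA, or cortistatin A, a steroidal alkaloid that blocks CDK8 and its relative CDK19, the kinases of Mediator. No glucose treatment is given in the labels, and both groups share medium, line and time. The arrays were Affymetrix Human U133 Plus 2.0, read as log2 RMA signals, 1 array for each of 3 wells in a group.

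TXNIP and the ARRDC proteins are alpha-arrestins, adaptors that link membrane proteins to ubiquitin ligases of the NEDD4 family and send them to internal membranes. TXNIP also binds reduced thioredoxin, the TXN protein, which TXNRD1 keeps reduced with electrons from NADPH, and both TXNIP and ARRDC4 restrain glucose uptake. Transcription of TXNIP and ARRDC4 is driven by MondoA, encoded by MLXIP, in a dimer with MLX. The dimer gathers on promoters when phosphorylated glucose builds up in the cell and binds a carbohydrate response element made of paired E-box-like elements with a short spacer.

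The promoters of TXNIP and ARRDC4 are shown because these are the genes known as direct targets of MondoA and the ones with the lowest fitted changes in the family. The sequences are from RefSeq (GRCh38.p14), run 5' to 3' and cover 250 bases before to 50 bases after the start. The TXNIP window is chr1:145996530-145996829 on the minus strand and the ARRDC4 window is chr15:97960453-97960752 on the plus strand. Capitals mark matches on either strand to the E-box CACGTG, to the CCAAT box and to a pair of CACGNG half-sites with 5 bases between them, whose arms would also take the letters of an E-box. The motif letters were written down after the TXNIP sequence had been seen.
TXNIP: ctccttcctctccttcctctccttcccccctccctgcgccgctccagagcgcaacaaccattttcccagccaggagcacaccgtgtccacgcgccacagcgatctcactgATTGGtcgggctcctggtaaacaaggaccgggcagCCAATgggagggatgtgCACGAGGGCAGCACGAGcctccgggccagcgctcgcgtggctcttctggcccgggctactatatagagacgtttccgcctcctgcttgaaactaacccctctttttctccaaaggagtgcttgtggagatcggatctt
ARRDC4: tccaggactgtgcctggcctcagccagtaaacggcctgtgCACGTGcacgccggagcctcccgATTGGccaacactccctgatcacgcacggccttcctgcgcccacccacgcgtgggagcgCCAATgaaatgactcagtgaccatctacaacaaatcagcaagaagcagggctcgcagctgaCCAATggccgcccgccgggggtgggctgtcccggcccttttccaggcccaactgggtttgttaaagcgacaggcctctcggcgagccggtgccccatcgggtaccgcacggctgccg
The TXNIP window shown held 1 paired element, from 88 to 72 bases before the start, and 2 CCAAT boxes, and no E-box. A second window listed for TXNIP, at another start, held none of these motifs. The ARRDC4 window held 1 E-box, from 210 to 205 bases before the start, and 3 CCAAT boxes, and no match to the paired element. Over all 35116 promoter windows in the table, 0.057% had the paired element, 7.26% the E-box and 34.6% a CCAAT box. Of the 13 windows listed for the 9 genes, the paired element was in 1 and the E-box in 2, the other being that of MLX, and these motifs do not overlap each other in them. A CCAAT box was in at least 1 window of every member gene except TXN. The core of the antioxidant response element bound by NRF2, TGACNNNGC, was in 13.3% of all windows. It was in both windows of TXNRD1, a textbook NRF2 target, in 1 of 2 windows of ARRDC2 and in that of MLX, and these letters were not in the TXN window. A match is a run of letters, not a measured binding site.

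On the arrays, TXNIP was lower in CA on all of its probe sets and ARRDC4 was the only other alpha-arrestin whose CA and DMSO arrays did not overlap. MLXIP read slightly higher in CA, and MLX, TXN and TXNRD1 differed by at most 0.04 on the log2 scale on their brightest probe sets. A gene's change is read from its brightest tested probe set, a choice made without the groups. Probe sets were tested if their mean over the 6 arrays was at least 3.49, and 18 of the 22 were. By gene these were 3 of 3 for TXNIP, 6 of 6 for MLX, 2 of 2 for TXN, 2 of 4 for MLXIP, 1 of 2 for ARRDC1 and for TXNRD1, and the single probe sets of ARRDC2, ARRDC3 and ARRDC4. The 4 that were too dim had means below that level in both groups.

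Past an adjusted p of 0.05 in limma were 3 of the 18 tested probe sets, all of TXNIP and all lower in CA. Over all 27307 tested probe sets 0.0952% were past it. Since TXNIP brought the set together, nothing is read from that count. Of the 15 probe sets of the other 8 genes, limma called 0, with 2 at an unadjusted p under 0.05, a level that 9.31% of all tested probe sets passed. Groups that did not overlap were found for 3 of these 15, 1 of ARRDC4 and 2 of MLXIP, against 15.6% of all tested probe sets. Both counts are near the background.

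The arrays were alike as a whole, with correlations between any pair of at least 0.997 after rounding and medians from 3.47 to 3.52. On the first principal component the groups were apart, with DMSO at -9.98 to -5.89 and CA at -1.41 to 13.3. The mean of the 3' control probe sets was also apart, at 8.24 to 8.37 in DMSO and 8.08 to 8.17 in CA. On the second principal component CA array 1, at -19.0, was set apart from the others at 0.338 to 7.20. The 3' minus 5' signal of the actin control, a measure of how far labelling reached along a transcript, was 1.40 to 1.49 in DMSO and 1.14 to 1.31 in CA, so it separated the groups. The same measure from the GAPDH control overlapped between them, at 0.619 to 0.645 in DMSO and 0.583 to 0.629 in CA. The labels name the RNeasy Plus Microkit or TRIzol for RNA isolation without saying which sample had which, so the part of the isolation method in the results was not tested. With the actin measure as a covariate TXNIP changed by -1.13 and ARRDC4 by -0.37, near their changes without it of -1.17 and -0.41, but neither passed the threshold (limma, adjusted p = 0.628 and 0.745). With this covariate, which separated the groups, limma called 0 of all 27307 probe sets. Markers of the red cell and platelet lineage that K562 resembles were bright, with a mean over 7 probe sets of 9.96 to 10.0 in DMSO and 10.0 to 10.1 in CA, among them HBE1 and TFRC. Of 22 marker probe sets of 5 other cell types, 8 were under the filter, among them CD14, CD2, MS4A1 and LUM, while CD3D, LYZ, KRT19 and EPCAM were bright in both groups. The mean level of each of these 5 lists overlapped between CA and DMSO. In pooled RNA of a well, fewer cells with a transcript and less of it per cell cannot be told apart. RMA sets all arrays to a common distribution, so a change shared by most transcripts would not show.

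TXNIP on its brightest probe set read 9.56, 9.59 and 9.52 on DMSO arrays 1 to 3 and 8.37, 8.41 and 8.39 on CA arrays 1 to 3. The arrays of each group lay close together, and the groups were more than 1 log2 unit apart. The group means were 9.56 ± 0.032 in DMSO and 8.39 ± 0.019 in CA (SD, n = 3), a change of -1.17 (SE 0.041) or a 2.24-fold lower signal. Among 12810 tested genes, 1 had a larger change in either direction, EGR1.

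The other TXNIP probe sets gave smaller changes. The second in brightness read 8.33, 8.31 and 8.32 in DMSO and 7.36, 7.35 and 7.42 in CA, a change of -0.94 (95% confidence interval -1.04 to -0.84). The dimmest read 7.88, 7.81 and 7.83 in DMSO and 6.86, 6.71 and 6.86 in CA, a change of -1.03 (-1.17 to -0.90). The fold sizes were 1.92 and 2.05 against 2.24 on the brightest, whose interval was -1.26 to -1.07 and did not overlap that of the second. All 3 TXNIP probe sets carry the mark for sequence shared between transcripts, so none was left when such probe sets were dropped.

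ARRDC4 is the alpha-arrestin closest to TXNIP in its control by MondoA. Its probe set read 6.76, 6.95 and 6.86 in DMSO and 6.48, 6.40 and 6.45 in CA, so the highest CA array lay below the lowest DMSO array. The means were 6.86 ± 0.093 and 6.45 ± 0.038 (SD, n = 3), a change of -0.41 (95% confidence interval -0.55 to -0.27, SE 0.059), 1.33-fold lower. In limma its adjusted p was 0.116, above the threshold. Of the 12810 tested genes, 0.328% had a larger change in either direction and 17 had a lower value. With a mean-dependent prior variance in limma, where 1.04% of probe sets were called, the adjusted p of ARRDC4 was 0.00433. It was 0.0143 with the filter on dim probe sets at the 75th percentile, and over the other alternatives it lay between 0.0577 and 0.745.

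**Figure D1:**
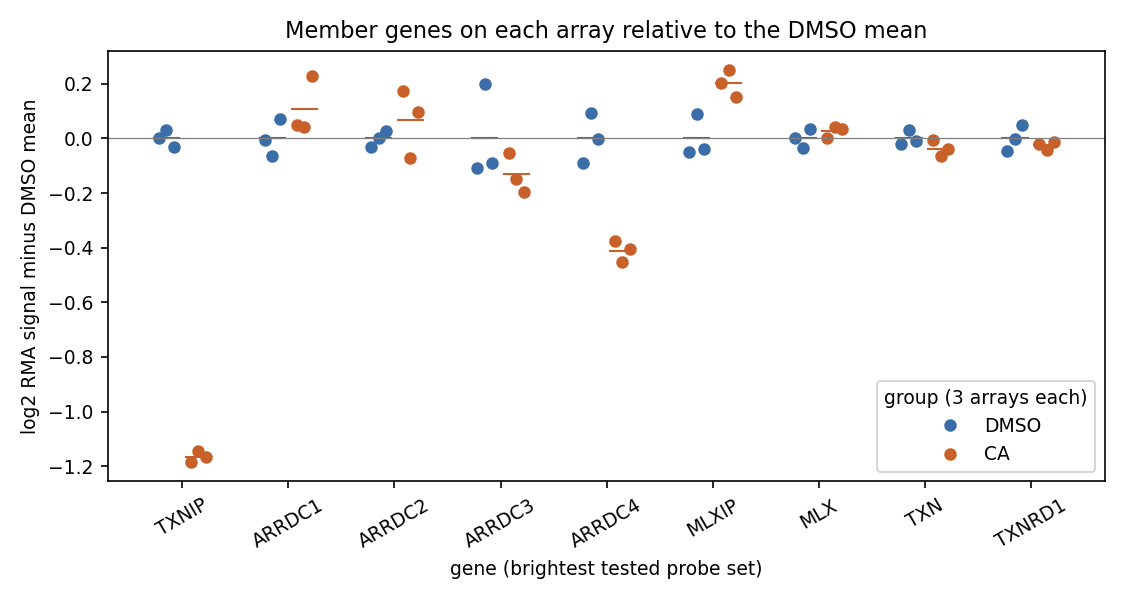
Log2 RMA signal of each member gene on each array minus its own DMSO mean, for the brightest tested probe set; points are arrays, 3 DMSO and 3 CA, and short lines are group means. TXNIP on the CA arrays lies at -1.18 to -1.15 and ARRDC4 at -0.45 to -0.38, while the points of MLX, TXN and TXNRD1 mix around 0.

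The remaining alpha-arrestins overlapped between the groups. ARRDC3, known for drawing the beta2-adrenergic receptor and integrin beta4 to ubiquitin ligases, read 6.55, 6.86 and 6.57 in DMSO and 6.61, 6.51 and 6.46 in CA. DMSO array 2 was high and CA array 1 lay above the other DMSO arrays. The change was -0.13 (95% confidence interval -0.35 to 0.09, limma adjusted p = 0.731), or -0.03 without DMSO array 2. On the scale of the 3' control RNAs, which lifts the median of all probe sets from -0.01 to 0.19, it was 0.06.

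ARRDC2 read 6.13, 6.16 and 6.19 in DMSO and 6.33, 6.09 and 6.26 in CA, with CA array 2 below and the other CA arrays above all DMSO arrays. Its change was 0.07 (-0.10 to 0.23, limma adjusted p = 0.828). ARRDC1, which helps to bud vesicles from the plasma membrane, read 4.46, 4.40 and 4.54 in DMSO and 4.52, 4.51 and 4.70 in CA. Its highest value was CA array 3, and the other CA arrays lay within the DMSO range. Its change was 0.11 (-0.06 to 0.27, limma adjusted p = 0.699), and a dim probe set of it, which was not tested, gave -0.03. On the 3' control RNA scale ARRDC2 and ARRDC1 were called, at 0.26 and 0.30 (limma adjusted p = 0.0475 and 0.0483). With the 5' probe sets of the control RNAs as the scale they were not called, at 0.11 and 0.15. None of the 3 intervals given for ARRDC3, ARRDC2 and ARRDC1 reached the -0.41 fitted for ARRDC4, and the lowest bound was the -0.35 of ARRDC3. Whether the alpha-arrestins differed from each other in their response was not tested.

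MLXIP, the gene of MondoA itself, had its 2 tested probe sets on the higher side in CA. On the brighter the DMSO arrays read 7.63, 7.77 and 7.64 and the CA arrays 7.88, 7.93 and 7.83. On the other they read 7.10, 7.25 and 7.13 in DMSO and 7.29, 7.25 and 7.33 in CA, where CA array 2 and DMSO array 2 differed only in the third decimal. The changes were 0.20 (95% confidence interval 0.07 to 0.33, limma adjusted p = 0.355) and 0.13 (-0.0016 to 0.27, limma adjusted p = 0.543). Over all tested genes 5.53% had a larger change than MLXIP in either direction. The call depended on scaling: relative to the 3' control RNAs MLXIP changed by 0.40 (limma adjusted p = 0.0303), of which 0.20 is the shift of all probe sets. On that scale limma called 3691 of 27307 probe sets. Among them were the other tested probe set of MLXIP and probe sets of MLX, ARRDC1 and ARRDC2. Relative to the 5' probe sets of the control RNAs, MLXIP changed by 0.24 (limma adjusted p = 0.7975). On that 5' scale limma called 28 probe sets, and of the members only the 3 of TXNIP. The 2 dim probe sets of MLXIP gave 0.08 and 0.02.

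MLX, the shared partner of MondoA and its relative ChREBP, had 6 tested probe sets with changes from -0.03 to 0.10 and overlapping groups on each. On the brightest the DMSO arrays read 9.08, 9.04 and 9.11 and the CA arrays 9.08, 9.12 and 9.11. The change was 0.03 (95% confidence interval -0.07 to 0.13), an interval that does not reach the size seen for ARRDC4 in either direction. Adjusted p in limma was between 0.672 and 0.968 over its probe sets. On the 3' control RNA scale the probe set at 0.10 was called, at 0.29 (limma adjusted p = 0.041). With the 5' probe sets as the scale it was not called, at 0.14.

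The thioredoxin genes were among the bright signals of these cells. TXN read 11.31, 11.36 and 11.32 in DMSO and 11.32, 11.27 and 11.29 in CA on its brighter probe set, a change of -0.04 (95% confidence interval -0.14 to 0.06, limma adjusted p = 0.840). On the other it read 7.45, 7.57 and 7.61 in DMSO and 7.41, 7.53 and 7.18 in CA, with CA array 3 low and the others mixed. That change was -0.17 (-0.40 to 0.06, limma adjusted p = 0.655), and the intervals of the TXN probe sets overlapped.

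TXNRD1 read 10.30, 10.35 and 10.40 in DMSO and 10.33, 10.31 and 10.34 in CA, all CA arrays within the DMSO range. Its change was -0.03 (95% confidence interval -0.13 to 0.08, limma adjusted p = 0.904). The sign of TXN and TXNRD1 turned on both control RNA scales, to 0.16 and 0.17 with the 3' probe sets and 0.01 and 0.02 with the 5' probe sets. The other probe set of TXNRD1 was dim at 1.69 in DMSO and 1.73 in CA and was not tested.

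**Figure D2:**
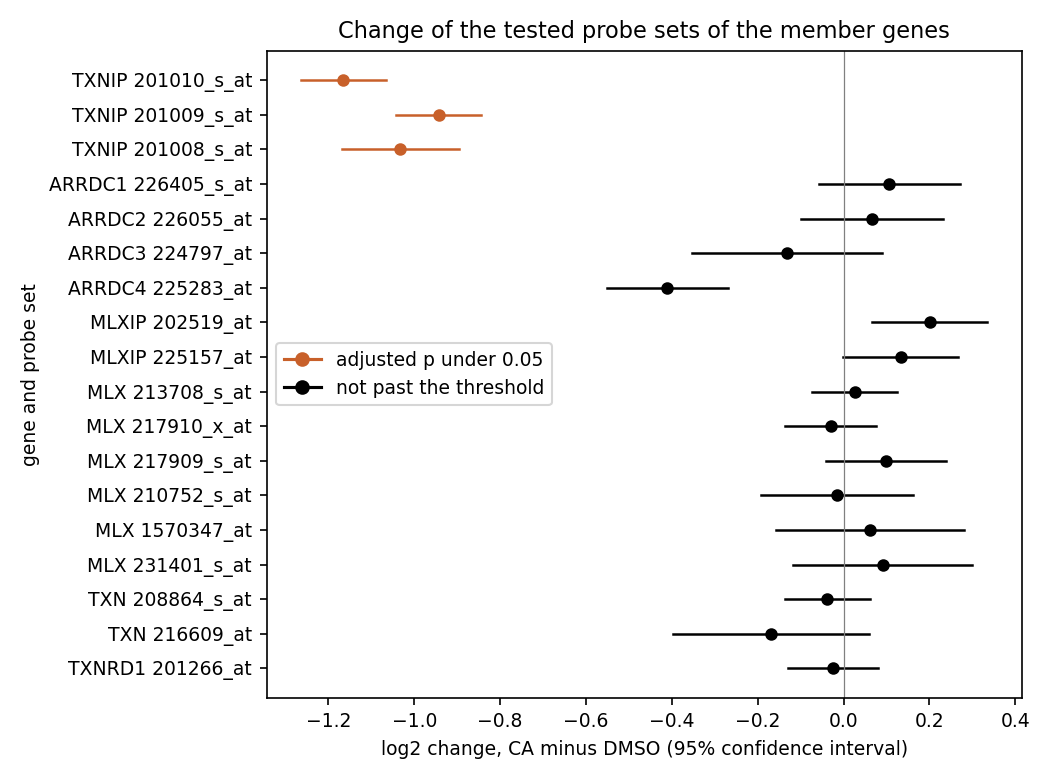
Log2 change, CA minus DMSO, with the 95% confidence interval from limma for each of the 18 tested member probe sets; orange marks an adjusted p under 0.05. The 3 TXNIP intervals lie between -1.26 and -0.84, that of ARRDC4 between -0.55 and -0.27, and those of MLX, TXN and TXNRD1 span 0.

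The gene profiles most like TXNIP over the 6 arrays were taken as those with the smallest root mean square difference from its brightest probe set after centring each on its own mean. Outside the family these were DNAJB4 (0.280), PPP1R10 (0.335), EGR1 (0.349), HEXIM1 (0.363) and CCDC102A (0.375) on the log2 scale. All were lower on every CA array than on every DMSO array. With only 6 arrays in 2 groups, this likeness mostly restates a fall in CA. DNAJB4, a co-chaperone, changed by -0.61 and EGR1, an immediate early transcription factor, by -1.80. CCDC102A, with means of 4.13 and 3.66, was dimmer than the others. ARRDC4 had a difference of 0.382 from TXNIP, with 7 of the 12801 other genes closer. For ARRDC3 8.51% were closer and for TXN 31.9%. MLXIP, on the higher side in CA, had 96.5% closer.

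Genes around the family were read from 8 lists with 101 genes in all, of which 82 were measured above the filter. Limma called 0 of the 82, where it called 0.0859% of all 12810 tested genes, and 10 were at an unadjusted p under 0.05. That is 12.2% of the 82, beside 8.61% of all tested genes. By list the share ran from 0% for the other arrestins and retromer to 33.3% for the MLX partners, with 3 genes measured. The median change over the 82 was -0.01, as it was over all tested genes.

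MLX partners other than MondoA were on the higher side in part, with 3 of 4 measured, 0 called and 1 at p under 0.05. MLXIPL, the gene of ChREBP, read 4.35, 4.13 and 4.39 in DMSO and 4.50, 4.38 and 4.68 in CA, which overlapped. MNT, a repressor that pairs with MLX or MAX and the brightest of these, read 7.44, 7.49 and 7.21 in DMSO and 7.64, 7.53 and 7.58 in CA. Its groups did not overlap, as for 15.6% of all tested probe sets. The changes of MLXIPL and MNT were 0.23 (limma adjusted p = 0.556) and 0.20 (limma adjusted p = 0.520).

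Known targets of the carbohydrate response element other than the arrestins gave values on both sides of 0. Of 12 measured, 9 had fitted values above 0, 3 were below, 0 were called and 3 were at p under 0.05, with a median of 0.04. Over all tested genes 8.61% were at that p and the median was -0.01. RGS16, a brake on G protein signalling, had the largest change and read 3.51, 3.47 and 3.33 in DMSO and 3.74, 3.92 and 3.83 in CA. That is 0.40 on the higher side (limma adjusted p = 0.177) at a signal whose DMSO mean of 3.43 lay under the filter, so it was tested through its CA arrays. KLF10, a zinc finger repressor, changed by -0.21 (limma adjusted p = 0.440), and HK2, a hexokinase, read 8.90, 8.83 and 8.89 in DMSO and 9.07, 9.02 and 8.99 in CA, 0.16 higher (limma adjusted p = 0.366). Those of lipid synthesis, FASN, ACACA, ACLY, SCD and ELOVL6, had -0.09, 0.05, 0.04, 0.02 and -0.03. Of these only the groups of ELOVL6 did not overlap, as for 15.6% of all tested probe sets. LDHA, the brightest, changed by 0.00.

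Of 14 measured genes of glucose uptake and phosphorylation, 0 were called and 1 was at p under 0.05, that of HK2. SLC2A13, a proton and inositol transporter, had the largest change at 0.17, and HK1, the brightest, had 0.05. SLC2A1, the gene of the glucose transporter that TXNIP is known to draw from the cell surface, had 0.09, and the transporter gene SLC2A3 had 0.02.

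In the thioredoxin and glutaredoxin system limma called 0 of 22 and found 1 at p under 0.05, and the median was -0.01. GLRX, a glutaredoxin, had the largest change at -0.16, and PRDX1, a peroxiredoxin recycled by thioredoxin and the brightest, had -0.01. RRM2, the ribonucleotide reductase subunit, had -0.12 and was the member called with the mean-dependent variance (limma adjusted p = 0.0413), while in the plain fit its adjusted p was 0.461. NRF2 targets had 0 of 14 called and 2 at p under 0.05, with 12 fitted values below 0 and a median of -0.02. The median over all tested genes was also below 0, at -0.01. SLC7A11, a cystine importer, had the largest change of the NRF2 targets at -0.16, and FTL, the ferritin light chain and the brightest, had -0.01.

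Genes of proteins that work beside alpha-arrestins gave small values as well. Among the other arrestins and their structural relatives in the retromer coat, 6 were measured, limma called 0, and 0 had an unadjusted p under 0.05. SAG, an arrestin of the retina, had the largest change at -0.27 from a dim 3.81, and VPS26A, the brightest, had -0.01. NEDD4 family ligases had 0 of 8 called and 2 at p under 0.05, or 25% beside 8.61% of all tested genes. WWP2 had the largest change at -0.14, and SMURF2, the brightest, had -0.02. AMPK phosphorylates TXNIP and marks it for breakdown. Of the 6 measured AMPK subunit genes 0 were called and 1, or 16.7%, was at p under 0.05. PRKAG2 had -0.25 and PRKAG1, the brightest, -0.02.

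**Figure D3:**
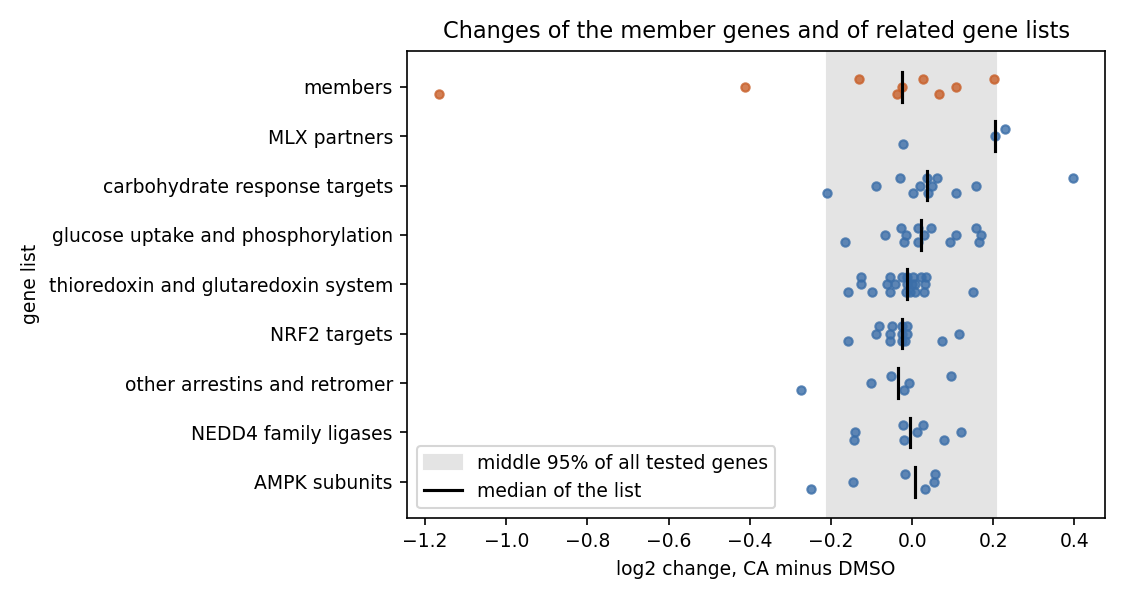
Log2 change, CA minus DMSO, of the 9 member genes (orange) and of the measured genes in 8 related lists (blue), with each list's median as a black line and the middle 95% of all tested genes, from -0.21 to 0.21, in grey. TXNIP and ARRDC4 lie below the grey range and RGS16 above it at 0.40, and MLXIPL, KLF10, SAG and PRKAG2 lie just outside it.

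The paired element marked in the TXNIP promoter was in the windows of 20 genes, 17 of them measured on the arrays. Besides TXNIP, limma called 0 of the 16 others, with 1 at p under 0.05, against 0.0859% of all tested genes called and 8.61% at that p. Both counts are near the background. Their changes ran from -0.20 for TIGD1 to 0.15 for TCEAL4, with a median of -0.04. GFPT1, the entry enzyme of hexosamine synthesis, had -0.02. These genes were listed after the arrays had been read.

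TXNIP kept its direction under every alternative that could give it a value, while its call did not hold under all. Its change was between -1.18 and -0.97 over 16 alternatives, and it was -1.16 without CA array 1, the array that stood apart. In limma its brightest probe set missed the threshold with the replicate block (adjusted p = 0.0690) and with the actin covariate (adjusted p = 0.628), fits that called 0 of all probe sets. That probe set passed the threshold without each array in turn. The dimmest TXNIP probe set missed it without DMSO array 1, 2 or 3 (limma adjusted p = 0.0859, 0.0775 and 0.0659), at changes of -1.01, -1.05 and -1.04. ARRDC4 stayed lower in 17 of 17 alternatives, between -0.46 and -0.21.

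**Figure D4:**
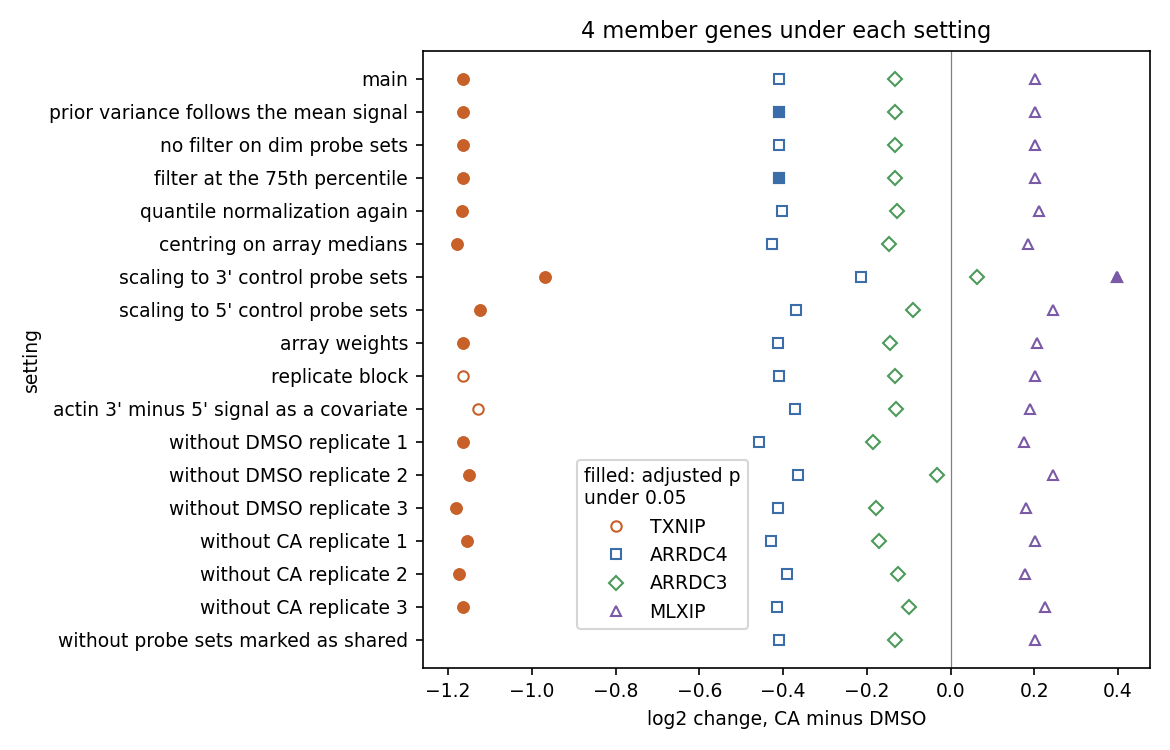
Log2 change, CA minus DMSO, of TXNIP, ARRDC4, ARRDC3 and MLXIP under the main fit and each alternative setting; a filled symbol marks an adjusted p under 0.05 in limma. TXNIP, which has no value without the probe sets marked as shared, lies between -1.18 and -0.97 and ARRDC4 between -0.46 and -0.21, while ARRDC3 crosses 0 on the scale of the 3' control RNAs.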

How the data were processed

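Total RNA from 3 DMSO and 3 CA wells was hybridised to U133 Plus 2.0 arrays. The authors deposited log2 values for 54675 probe sets, made with RMA in the affy package per the submitters' processing notes, with no version given. Whether other arrays were processed with them is not stated, and probe level data were not used here. Genes were named from the platform annotation where a probe set had 1 symbol.

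The 62 controls were left out. Probe sets with a mean of at least 3.49, the median of all means, entered a linear model per probe set in limma 3.58.1 under R 4.3.3 (lmFit, then eBayes). The test was 2-sided, without a block, and p-values were Benjamini-Hochberg adjusted over 27307 probe sets; "called" means an adjusted p under 0.05. The fit was run on simulated data with planted changes and independent noise, which cannot show how effects shared within an array move the calls. Positive changes are higher in CA. The p-values measure the spread between wells, and precision is limited by the number of arrays (median SE of a change 0.066).

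The members and lists were chosen with earlier results of these data known. Named were all members, from each list its called members or, with 0 called, its brightest gene and the one with the largest change, and the 5 profiles most like TXNIP. Other genes were named after their values were seen. Alternatives are in the closing section. Replicate numbers showed no visible pairing of the arrays: deviations of same-numbered DMSO and CA arrays correlated at -0.07, 0.01 and 0.06. These values cannot show whether same-numbered wells were handled together.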

Additional observations from a re-analysis of the deposited data

How the results depend on the processing

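With 3 arrays a group, calls moved more than changes did. Against 26 probe sets called in all, limma called 285 with the mean-dependent variance, 5 when dim probe sets were kept, 162 when the filter was raised to the 75th percentile, 3691 on the 3' control RNA scale, of which 3675 were higher, and 1 without probe sets marked as shared. With the replicate number as a block limma called 0, with 2485 at an unadjusted p under 0.05, and with the actin 3' minus 5' signal as a covariate, chosen after seeing the data, 0, with 1792. On the 5' control RNA scale limma called 28. Leaving out each array in turn gave 2 to 6. Against 3 member probe sets, 8 were called on the 3' control RNA scale, 0 without shared probe sets, where TXNIP has none, and 0 with the replicate block or the actin covariate, each with 5 at an unadjusted p under 0.05; leaving out an array gave 2 to 3. Of the list genes, 1 was called with the mean-dependent variance and 14 on the 3' control RNA scale, against 0 in the other fits. TXNIP had an adjusted p of 0.0690 with the replicate block, at the same change of -1.17, and 0.628 with the actin covariate, at -1.13. Signs turned for ARRDC1, read from its dim probe set without shared ones (-0.034), ARRDC3 on the 3' scale (0.064), and TXN and TXNRD1 on the 3' (0.16 and 0.17) and 5' scales (0.0052 and 0.018). These 4 genes were not called in those fits, and the cause was not tested.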
